A study of Mus musculus with 9 samples.

Results

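Shaved, untreated skin of BALB/c mice was compared with that of C57BL/6 mice across all genes, in 6 of the 9 libraries of a total RNA sequencing study of mouse skin. The 3 BALB/c and the 3 C57BL/6 libraries were chosen by their labels alone. Both groups are labelled wild type. The mice came from the Jackson Laboratory at 4 to 5 weeks of age, rested for 2 weeks and entered the experiment at 6 weeks. They were shaved on day 0, were left untreated for 7 days and gave skin on day 8. The labels list 3 mice of each strain but tie no library to a mouse, and they give neither the substrain nor the sex. p-values therefore measure the spread between these libraries, part of which may be technical. The remaining 3 libraries, labelled IL-6 KO, were left out of the tests.

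C57BL/6 and BALB/c are long-inbred strains that carry different alleles at many genes. C57BL/6 mice have a black coat and the H-2b haplotype of the major histocompatibility complex, BALB/c mice are albino and carry H-2d, and the strains are often used as examples of type 1 and type 2 biased immunity. Skin joins a stratified epidermis, whose outer cells build a cornified envelope of cross-linked protein and lipid, to a collagen-rich dermis with vessels, fat and a thin sheet of striated muscle. Because reads of both strains were placed on 1 mouse genome, built from C57BL/6 DNA, a strain difference in a read count can reflect RNA abundance, or where the read could be placed. Each gene was therefore read in 4 ways. Exon reads come mostly from spliced RNA, intron reads from unspliced RNA, unique exon reads were placed at 1 position only, and exon-exon reads cross a splice junction.

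The 6 libraries held 6083876 to 6882193 exon reads and 370010 to 607322 intron reads. Label checks did not depart from the strain labels: H2-Ea-ps, an old symbol of a class II gene that is silent in the H-2b haplotype, had no exon read in any C57BL/6 library against 325, 469 and 548 in the BALB/c libraries. Nnt, a mitochondrial transhydrogenase gene that is partly deleted in the C57BL/6J substrain, had 190, 245 and 172 exon reads in C57BL/6 and 430, 616 and 586 in BALB/c (log2 fold change 1.46, SE 0.18, adjusted p = 0.00537). Xist was at 0 in each C57BL/6 library and at 3, 130 and 2 reads in BALB/c, of which 1.48% were unique. Eif2s3y, a Y chromosome gene, had 413, 382 and 313 exon reads in C57BL/6 and 373, 427 and 343 in BALB/c, so each library holds RNA of male mice. The Y genes Ddx3y and Uty were higher in BALB/c by 1.15 and 1.00 on the log2 scale (adjusted p = 0.0395 and 0.0224 in edgeR's test). Both fell short of 0.05 when any 1 BALB/c library was left out. Kdm5d, also on Y, did not differ by that test (0.17). BALB/c replicates 2 and 3 were closer to each other than any other pair within a group. The squared differences of their counts were 4.571 times what sampling noise alone gives (chi-square per degree of freedom). In the other 5 pairs of a group this value was 24.47 to 37.64. BALB/c replicates 2 and 3 were kept as 2 samples.

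The BALB/c tables also differ from the others in how they were made. In each BALB/c table, 17474 genes that have 0 annotated transcripts were given an exon length, whereas in each C57BL/6 and IL-6 KO table that length was 0. Processed pseudogenes among these genes held 10457, 10558 and 11098 reads in BALB/c, 693, 668 and 555 in C57BL/6, and 1116, 1201 and 1168 in IL-6 KO. All such reads were deposited as intron reads, none as exon reads. Among exon reads, the share placed at 1 position was 87.2% ± 0.785 for C57BL/6 and 85.4% ± 0.714 for BALB/c (SD, n = 3 libraries each; exact two-sided permutation p = 0.1, the smallest that 3 against 3 allows). Exon-exon reads made up 46.9% ± 0.161 in C57BL/6 and 42.2% ± 1.79 in BALB/c (SD, n = 3 each; exact two-sided permutation p = 0.1). BALB/c and C57BL/6 did not overlap in either share. In IL-6 KO, whose tables give the length of 0, the share placed at 1 position was 84.5%, 86.7% and 85.5%. Exon-exon reads made up 41.5%, 44.1% and 42.9% there. Between the BALB/c and C57BL/6 libraries, the way the tables were made and the strain cannot be told apart.

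**Figure D1:**
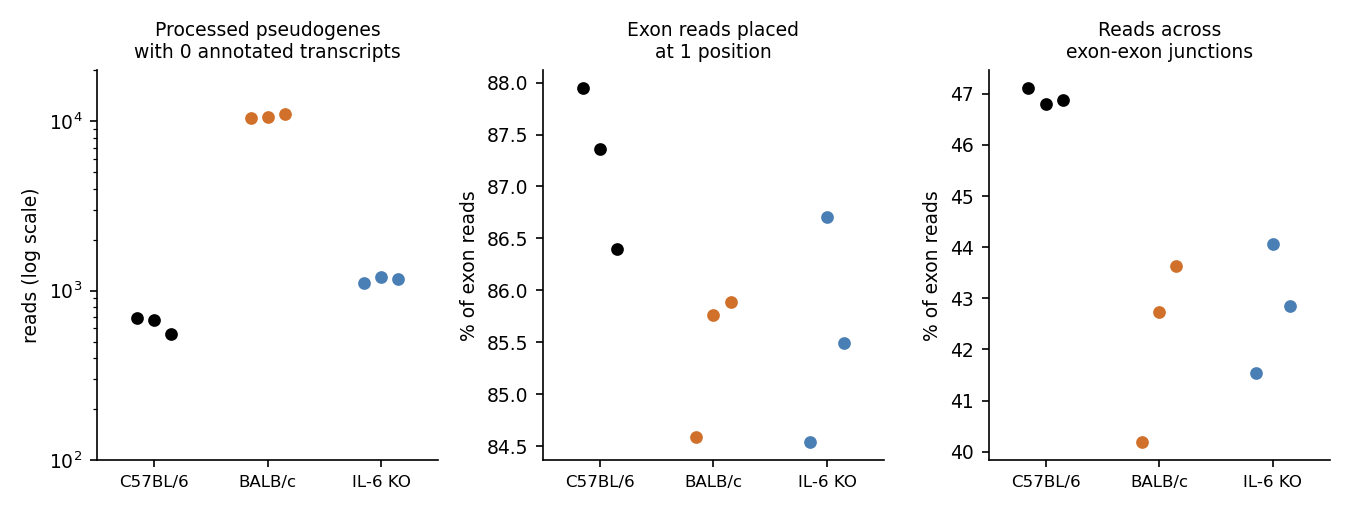
Each point is 1 library, grouped by its label. Left, reads in processed pseudogenes with 0 annotated transcripts (log axis); middle and right, the share of exon reads that were placed at 1 position or that cross a junction (percent of exon reads, axes not starting at 0). The 3 BALB/c libraries hold 10457 to 11098 pseudogene reads and the 3 C57BL/6 libraries 555 to 693.

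In exon reads, 640 of 13893 genes tested (4.61%) differed between the strains at an adjusted p under 0.05 in edgeR's quasi-likelihood test, and such genes are called here. Of these, 349 were higher in BALB/c (2.51%) and 291 were lower (2.09%). The difference was at least 2-fold in 405 of the 640, and 578 are protein-coding. Before adjustment, p in that test was under 0.05 in 3175 of the 13893 genes. The 3 BALB/c and 3 C57BL/6 values did not overlap in any of the 640, and over all genes tested 30.3% did not overlap. The count moved with single libraries: it was 212 without BALB/c replicate 2, 210 without BALB/c replicate 3, 309 without C57BL/6 replicate 1 and 375 without C57BL/6 replicate 3. Of the 640 genes, 206 were still called without BALB/c replicate 2, and 203 without BALB/c replicate 3. The 2 of these libraries that lie closest together are the ones whose loss lowers the count most.

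The outer epidermis gave the largest group of differences in 1 direction. Of 35 tested genes of the cornified envelope, 15 were higher in BALB/c and 0 lower, whereas 2.51% of all genes tested were called higher. The median log2 fold change was 1.08, against 0.01 over all genes tested. Lce1e, which encodes a late cornified envelope protein (chr3:92707401-92709074, GRCm38), had 86, 81 and 80 exon reads in C57BL/6 and 902, 552 and 537 in BALB/c. In CPM (exon counts scaled to a common library size with TMM), this was 12.9 ± 1.19 against 105 ± 30.2 (SD, n = 3), a log2 fold change of 3.02 (SE 0.22, adjusted p = 0.000581). Lce1g rose from 15, 22 and 25 reads to 236, 171 and 184. In neither gene did the strains overlap, as in all 640 called genes. Hrnr, which encodes the envelope protein hornerin, rose from 1061, 1241 and 417 to 3216, 3020 and 3117 reads, of which under 1% were unique in either strain; hornerin is a repeat protein. The genes of other envelope components did not pass the test: the log2 fold change was 0.41 for Lor, which encodes loricrin, and −0.05 for Ivl, which encodes involucrin. Flg, which encodes filaggrin, had an exon log2 fold change of 1.26 (adjusted p = 0.066), and its intron reads were higher by 2.59 (adjusted p = 0.000607). Without BALB/c replicate 2 the list of envelope genes held 12 higher calls, and without BALB/c replicate 3 it held 10. With all 9 libraries in the fit it held 5 higher calls of 40 tested. With the replicate number as a block it held 9 of 35. Without C57BL/6 replicate 3 it held 13 higher and 4 lower calls, the latter Sprr1a, Rptn, Tchh and Tchhl1, of which Rptn, Tchh and Tchhl1 are also genes of the hair follicle. The calls of Hrnr and Sprr1b were lost without C57BL/6 replicate 1, BALB/c replicate 2 or BALB/c replicate 3, whereas Lce1e and Lce1g kept theirs in every alternative run.

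These genes lie together. A run of neighbouring called genes on chromosome 3 (chr3:92436809-93333570) holds 16 called genes of 27 tested, all 16 higher in BALB/c. It runs from Sprr1b over 13 Lce1 and Lce6 genes to Hrnr. Within it, Lce1a2 and Lce1m lay at log2 fold changes of −0.25 and 0.36 and did not pass the test. Of the 16, 10 were tested in intron reads, and 6 of these were called higher there too. Intron reads of Lce1e were 2, 4 and 2 in C57BL/6 and 29, 22 and 15 in BALB/c (log2 fold change 2.82, SE 0.42, adjusted p = 0.000725). Lce1d, a further member, was higher by 1.99 in exon reads and by 1.85 in intron reads.

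**Figure D2:**
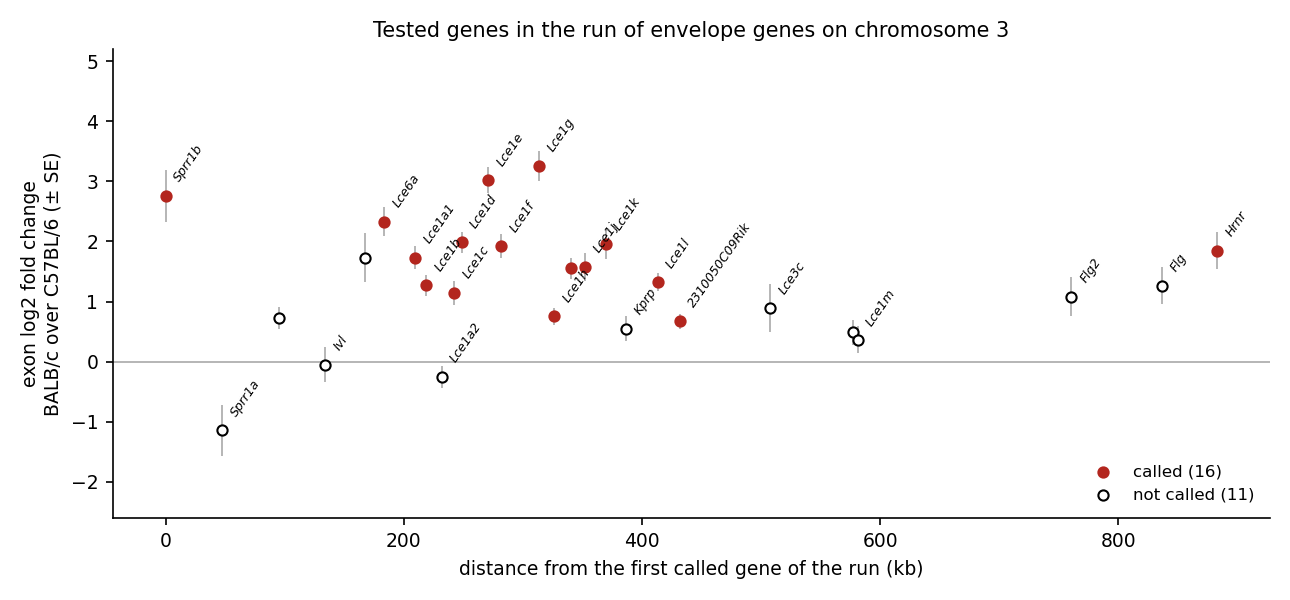
Exon log2 fold changes (BALB/c over C57BL/6, ± SE) of the 27 tested genes of the run on chromosome 3 against their distance in kb from its first called gene. Filled points are the 16 called genes, all above 0, and open points the 11 that were not called.

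Other epidermal genes were called in the same direction. Serpinb3b, which encodes a protease inhibitor of squamous epithelia, had 88, 47 and 67 exon reads in C57BL/6 and 397, 364 and 378 in BALB/c (log2 fold change 2.51, SE 0.22, adjusted p = 0.00126). Its intron reads rose from 55, 30 and 19 to 142, 121 and 113. Among 17 tested genes of the serpin and stefin clusters, 7 were higher and 1 was lower, against 2.51% and 2.09% of all genes tested. The median log2 fold change of the list was 0.865. Without BALB/c replicate 2 this list held 4 higher calls, and with all 9 libraries in the fit it held 3 of 20 tested. Duox1, which encodes an enzyme that makes hydrogen peroxide, had 35, 35 and 40 exon reads in C57BL/6 and 140, 173 and 140 in BALB/c, and was called in introns too (log2 fold change 1.38). Slurp1, a secreted protein of the Ly6 family that keratinocytes make, was higher by 1.47 (SE 0.19, adjusted p = 0.00629). Keratinocyte markers as such (Krt5, Krt14, Krt1, Krt10 and Lor) gave 0 exon calls of 5 tested in edgeR's test (2 at an unadjusted p under 0.05, and 2 higher calls in DESeq2), with a median log2 fold change of 0.411, and 2 of 5 were called higher in introns. Their summed share of exon reads was 1.09% to 1.93% in C57BL/6 and 1.74% to 2.09% in BALB/c, so that the strains overlapped. In bulk skin, more cells of a type and more RNA per cell cannot be told apart, and the part of cell composition in these differences was not tested.

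The called lipid genes of cholesterol synthesis, the barrier and the sebaceous gland were all higher in BALB/c. Over all genes tested, 2.51% were called higher. In cholesterol synthesis, 4 of 23 tested genes were higher in BALB/c and 0 lower (median log2 fold change 0.488). Idi1, an isomerase early in the pathway, had 297, 333 and 255 exon reads in C57BL/6 and 615, 525 and 525 in BALB/c (log2 fold change 0.94, SE 0.11, adjusted p = 0.00404). Msmo1, a sterol oxidase of the same pathway, was higher by 0.74. Of the 28 barrier lipid genes, 3 were higher (Lipk, Elovl3 and Fa2h), and of the 25 sebaceous lipid genes 3 were higher (Elovl3, Scd3 and Far2). Elovl3, which lengthens fatty acids, had 68, 82 and 49 reads in C57BL/6 and 316, 183 and 193 in BALB/c. The sebaceous lipid genes summed to 0.27%, 0.441% and 0.389% of exon reads in C57BL/6 and to 0.979%, 0.282% and 0.317% in BALB/c, where replicate 1 stands apart and the others lie within the C57BL/6 range. Without C57BL/6 replicate 1, BALB/c replicate 2 or BALB/c replicate 3, 1 of the sebaceous lipid genes was called. Of the cholesterol synthesis genes, 1 was called without BALB/c replicate 3, and 2 without C57BL/6 replicate 1 or C57BL/6 replicate 3. Without C57BL/6 replicate 2, 5 barrier lipid genes were higher.

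The called genes of antigen presentation were all higher in BALB/c. Of 23 tested genes of class I presentation and peptide loading, 5 were higher and 0 lower, with a median log2 fold change of 0.457. Over all genes tested, 2.51% were called higher. At an unadjusted p under 0.05 edgeR counted 17 of the 23, against 3175 of all 13893 genes tested. The list summed to 0.312% to 0.349% of exon reads in C57BL/6 and 0.389% to 0.411% in BALB/c, which did not overlap. Of 11 tested genes of class II and antigen presentation, 2 were higher (H2-Ea-ps and H2-DMb2) and 0 lower. H2-Q2 (chr17:35342242-35346762) had 0, 0 and 1 exon reads in C57BL/6 and 314, 275 and 250 in BALB/c, and its intron reads went from 0, 0 and 1 to 71, 54 and 58. The ratio of its summed, scaled exon counts was 854, with a 95% counting interval that starts at 153. H2-Q1 had 1, 0 and 1 exon reads against 202, 167 and 195, and 0 intron reads in each C57BL/6 library against 65, 51 and 47, which is at least 48.5-fold higher (floor of 3 reads over the group). Both genes encode class I-like molecules, and 81.6% and 86.2% of their BALB/c exon reads were unique. The class I heavy chain genes H2-K1 and H2-D1 did not pass the test (log2 fold changes −0.45 and 0.49), nor did B2m, the shared light chain (0.49). Psmb9, which encodes a subunit of the immunoproteasome, was higher by 0.60 (adjusted p = 0.0441), a call that was lost without any 1 of the 6 libraries. The class I list held 3 calls without C57BL/6 replicate 1, C57BL/6 replicate 2, BALB/c replicate 2 or BALB/c replicate 3. The call of H2-DMb2 was lost without C57BL/6 replicate 3, BALB/c replicate 2 or BALB/c replicate 3.

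The type 1, type 2 and type 17 immune lists held few calls. In type 1 immunity 1 of 11 tested genes was called, in type 2 immunity 0 of 22, and in type 17 immunity 0 of 10. Over all genes tested, 4.61% were called, and lists this short cannot be told apart from that share by such counts. The type 17 list also names the genes of interleukin-36 alpha, beta and gamma, by symbols that the tables do not use, so that these 3 are not among the 10 and are described below under their older symbols. The median log2 fold changes of these lists were 0.0456, −0.00564 and −0.045. At an unadjusted p under 0.05 edgeR counted 3 of the type 1, 7 of the type 2 and 3 of the type 17 genes. Over all genes tested this held for 3175 of 13893. DESeq2 called 3 type 2 genes higher and 1 lower, and 1 type 17 gene lower. The called gene was Il18, which encodes a cytokine stored in keratinocytes: it had 195, 168 and 122 exon reads in C57BL/6 and 365, 287 and 322 in BALB/c (log2 fold change 1.04, SE 0.15, adjusted p = 0.00964). Its intron difference was 0.31 and did not pass the test, and the exon call was lost without BALB/c replicate 3. The interleukin-36 genes were found as part of a run of neighbouring called genes on chromosome 2, and were named after their values were seen. There 4 of 5 tested genes were called, all higher: Il1f6, Il1f8 and Il1f9, which encode interleukin-36 alpha, beta and gamma, and Il1f10, which encodes interleukin-38. Il1f6 had 2, 9 and 4 exon reads in C57BL/6 and 45, 39 and 41 in BALB/c (log2 fold change 3.06, SE 0.41, adjusted p = 0.00796). Il1f9 had 118, 173 and 75 against 304, 319 and 289 (log2 fold change 1.36, SE 0.22, adjusted p = 0.016). Without BALB/c replicate 2, Il1f8, Il1f9 and Il1f10 were no longer called, and Il1f6 was.

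Chemokines ran the other way. Of 14 tested chemokine genes, 4 were lower in BALB/c and 0 higher: Ccl19, Ccl21a, Ccl27a and Cxcl12. Over all genes tested, 2.09% were called lower. Ccl27a, which encodes a keratinocyte chemokine that draws skin-homing T cells, had 241, 398 and 195 exon reads in C57BL/6 and 104, 67 and 92 in BALB/c (log2 fold change −1.62, SE 0.25, adjusted p = 0.0137). Ccl21a, which encodes a ligand of CCR7 made by lymphatic vessels, had 212, 337 and 198 against 16, 60 and 59. The strains did not overlap in either gene, as in all 640 called genes. Ccl19, Ccl21a and Ccl27a lie in a run on chromosome 4 (chr4:41769467-42773993) in which 9 of 11 tested genes were called, all lower, and the others are predicted genes, several of them near-identical copies of these chemokine genes. All 4 members of that run that were tested in introns were called lower there. Without BALB/c replicate 2, and likewise without BALB/c replicate 3, 1 of the tested chemokines was called, and without C57BL/6 replicate 1 there were 2. Ccl21a was lost in each case, Ccl27a was lost without either of these BALB/c libraries but kept without C57BL/6 replicate 1, and Ccl19 was kept throughout.

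Interferon-stimulated genes gave 4 higher and 1 lower of 58 tested (median log2 fold change 0.132), against 2.51% higher and 2.09% lower over all genes tested. Without C57BL/6 replicate 2 there were 4 higher and 3 lower, and the median was −0.196. Gbp2b, a guanylate-binding protein gene, had 2, 0 and 1 exon reads in C57BL/6 and 145, 89 and 99 in BALB/c, a ratio of 113 with a 95% counting interval from 38.3 to 550. Ifi44l had 0, 0 and 1 against 32, 40 and 40. These were the members furthest apart upwards; Gvin1, a large interferon-induced GTPase gene, had 167, 105 and 76 reads in C57BL/6 and 0 in each BALB/c library. Only 4.02% of the C57BL/6 reads of Gvin1 were unique.

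The Skint family and a TRIM gene cluster held genes with no exon read in any BALB/c library. Skint genes encode membrane proteins of keratinocytes, the first known of which is needed for the dendritic epidermal T cells of mouse skin. Of 11 tested members, 4 were lower and 2 higher, against 2.09% and 2.51% of all genes tested. Skint9 (chr4:112385969-112433985) had 342, 382 and 175 exon reads in C57BL/6 and 0, 0 and 0 in BALB/c, at least 295-fold lower (floor of 3 reads over the group). Its intron reads were 130, 102 and 64 in C57BL/6 and 0, 0 and 1 in BALB/c. Skint3 had 242, 278 and 100 exon reads against 0 in each BALB/c library, and Skint4 had 147, 209 and 76 against 0, 1 and 2. Every read of these 3 genes in C57BL/6 was unique. Skint2 and Skint10 were higher in BALB/c, by 1.55 and 0.85 in exon reads and by 1.57 and 1.30 in intron reads. Skint1 itself did not pass the test (log2 fold change 0.54), and of 11 tested genes of dendritic epidermal T cells 0 were called in edgeR's test or in DESeq2, and 1 had an unadjusted p under 0.05 (median −0.403). All 6 called Skint genes were called in intron reads in the same direction. Skint2 and Skint10 lost their exon calls without BALB/c replicate 2, BALB/c replicate 3, C57BL/6 replicate 1 or C57BL/6 replicate 3, and Skint9, Skint3 and Skint4 kept theirs.

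Trim12a, a relative of the antiviral gene Trim5, had 116, 100 and 103 exon reads in C57BL/6 and 0 in each BALB/c library, at least 105-fold lower. Its intron reads went from 74, 55 and 56 to 0 in each, at least 69.1-fold lower. In the surrounding cluster of 9 tested TRIM genes, 3 were lower and 2 higher, against 2.09% and 2.51% of all genes tested. Without C57BL/6 replicate 3, BALB/c replicate 2 or BALB/c replicate 3 the cluster held 2 lower calls and 1 higher call. The paralogs Trim34a and Trim34b, which share 98.686% of their sequence, moved in opposite directions: taken alone, their log2 ratios in gene reads (exon plus intron) were −2.50 and 4.23, and summed over both the ratio was −1.11.

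Single genes outside these families differed as strongly in exon and intron reads alike. Adh6a, an alcohol dehydrogenase gene (chr3:138313286-138331134), had 62, 88 and 57 exon reads in C57BL/6 and 759, 838 and 837 in BALB/c (10.7 ± 1.84 against 129 ± 9.95 CPM, SD, n = 3). Its intron reads were 22, 25 and 15 against 194, 219 and 181, and the log2 fold changes were 3.58 and 3.11. Baiap2l1, which encodes a protein that shapes actin at membranes, had 56, 104 and 66 exon reads against 1495, 1559 and 1859 (log2 fold change 4.47, SE 0.24, adjusted p = 0.000112). Its intron reads rose by 4.80 on the log2 scale, and 47.3% and 47.2% of its exon reads were unique in C57BL/6 and BALB/c. In the other direction, Pglyrp4, which encodes a secreted receptor for bacterial peptidoglycan, had 183, 316 and 80 exon reads in C57BL/6 and 7, 9 and 9 in BALB/c. The log2 fold change of Pglyrp4 was −4.45 in exon and −4.19 in intron reads. Rab6b, a small GTPase gene of Golgi traffic, had 137, 175 and 155 exon reads against 16, 10 and 4, with a log2 fold change of −3.93, and −5.44 in introns. Rec8, which encodes a cohesin subunit of meiosis, had 80, 64 and 47 exon reads against 9, 6 and 5. These genes were picked for calls in both read types and for exon values of the strains that do not overlap. Their intron values did not overlap either, as was so in 27.4% of all genes tested in introns. Each of them was called in every alternative run on the exon test, with adjusted p up to 0.0348 in the least certain (Rab6b).

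The matrix genes of the dermis called in exon reads were all lower in BALB/c. Over all genes tested, 2.09% were called lower. Of 27 tested genes of elastic fibres and matrix glycoproteins, 5 were lower and 0 higher (median log2 fold change −0.662), and of 11 small leucine-rich proteoglycans 3 were lower and 0 higher (median −0.222). Fmod, which encodes the collagen-binding proteoglycan fibromodulin, had 224, 212 and 176 exon reads in C57BL/6 and 38, 45 and 37 in BALB/c (log2 fold change −2.32, SE 0.15, adjusted p = 0.000279). Thbs4, a matrix protein gene of tendon and muscle, had 354, 153 and 400 reads against 40, 65 and 39. Of 29 collagen chains, 2 were lower (Col4a6 and Col8a2), with a median log2 fold change of −0.958. At an unadjusted p under 0.05 edgeR counted 20 of the 29 chains, against 3175 of all 13893 genes tested. DESeq2 called 10 collagen chains lower, and edgeR called 11 lower without C57BL/6 replicate 2. The summed share of the collagen chains was 5.25%, 1.07% and 2.21% of exon reads in C57BL/6 and 0.581%, 1.14% and 1.27% in BALB/c. Fibroblast markers gave 0 calls of 6 tested in edgeR's test or in DESeq2, and 2 had an unadjusted p under 0.05 (median log2 fold change −1.02). They summed to 0.803% to 4.83% of exon reads in C57BL/6 and 0.386% to 1.15% in BALB/c, which overlap, and their part in the matrix counts was not tested. Without BALB/c replicate 2, and likewise without BALB/c replicate 3, C57BL/6 replicate 1 or C57BL/6 replicate 3, 0 genes of the elastic fibre and matrix glycoproteins were called, and without BALB/c replicate 1 there were 2. In each of the first 4 cases the small leucine-rich proteoglycans held 1 call, Fmod, and their median was 0.083 without C57BL/6 replicate 1.

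The vessel and muscle genes called in exon reads were all lower in BALB/c, and 2.09% of all genes tested were called lower. Of 26 blood endothelial genes, 3 were lower (Vwf, Mmrn2 and Plvap; median −0.663), a count that moved with single libraries. The blood endothelium list had 0 calls without BALB/c replicate 3, 1 without BALB/c replicate 2, and 9, all lower, without BALB/c replicate 1. Vwf, which encodes von Willebrand factor, had 414, 356 and 456 exon reads in C57BL/6 and 134, 178 and 111 in BALB/c. Of 40 skeletal muscle genes, 2 were lower in exon reads (Actn3 and Myh8), and of 35 tested in introns 15 were lower and 0 higher (median −0.962), against 3.62% of all genes called lower there. Actn3, which encodes the alpha-actinin of fast fibres, had 14522, 16984 and 17632 exon reads against 3164, 4510 and 5357 (log2 fold change −1.90, SE 0.27, adjusted p = 0.00985). Muscle markers summed to 4.18% to 6.63% of exon reads in C57BL/6 and to 2.01% to 4.17% in BALB/c, so that the groups all but touch, and none of the 7 was at 0. The whole list of skeletal muscle genes summed to 10.6%, 9.22% and 14.1% in C57BL/6 and 4.68%, 9.61% and 9.22% in BALB/c, which overlap. Their part in the muscle counts was not tested. The call of Actn3 disappeared when BALB/c replicate 2 was left out (adjusted p = 0.0569), where the skeletal muscle list had 0 calls. Without BALB/c replicate 1 the skeletal muscle list held 1 higher and 1 lower call, and it held 1 lower call without C57BL/6 replicate 2, C57BL/6 replicate 3 or BALB/c replicate 3. White adipocyte genes had a median of 0.709 with 0 of 27 called in edgeR's test, 1 at an unadjusted p under 0.05, and 0 of the 26 tested by DESeq2. Their summed share was highest in BALB/c replicate 1 (2.53% of exon reads), against 0.927% to 1.12% in C57BL/6 and 0.93% to 0.983% in the other BALB/c libraries.

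In intron reads, 800 of 9722 genes tested (8.23%) were called, 448 higher (4.61%) and 352 lower (3.62%) in BALB/c. When libraries were scaled by size alone, the split was 368 higher and 446 lower. Of the 800, 36 are genes with no annotated transcript, whose reads were all deposited as intron reads, and 27 of these were higher. Such genes made up 125 of the 9722 tested. Among genes with an annotated transcript alone, 740 were called, 412 higher and 328 lower. Of the 640 exon-called genes, 366 were tested in introns. There 147 were called in the same direction, 10 in the opposite direction and 209 were not called. Conversely, 524 of the 681 intron-called genes that were also tested in exon reads were not called in exons. A difference between the strain effects in exon and intron reads was tested directly, as the read type by strain term. It was called in 426 of 9150 genes (4.66%): the exon fold change lay above the intron fold change in 198 (2.16%) and below it in 228 (2.49%). Scaling by library size alone turned this split to 318 above and 158 below and moved the median difference of all genes from 0.01 to 0.15, so that counts by direction depend on the scaling.

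**Figure D3:**
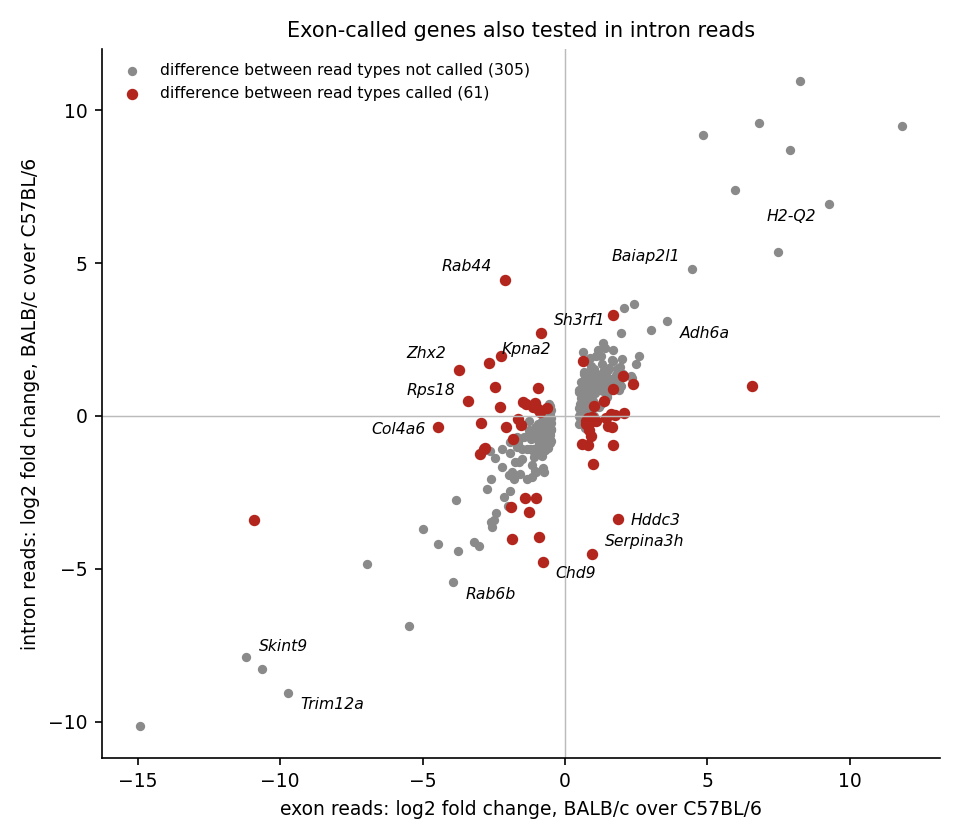
Exon log2 fold change against intron log2 fold change (BALB/c over C57BL/6) of the 366 exon-called genes that were also tested in introns. Red points are the 61 genes whose strain effects differed between exon and intron reads; Zhx2, Rab44 and Kpna2 lie at the upper left (exon lower, intron higher), and Serpina3h and Hddc3 at the lower right.

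Zhx2 gave one of the largest splits. It encodes a zinc-finger and homeobox repressor (chr15:57694665-57839832), and the BALB/cJ substrain is known for a retroviral insertion in its first intron that lowers the mature mRNA. Its exon reads were 219, 221 and 170 in C57BL/6 and 18, 10 and 17 in BALB/c (31.7 ± 1.44 against 2.38 ± 0.659 CPM, SD, n = 3). Its intron reads were 21, 28 and 16 against 52, 78 and 70. The exon log2 fold change was −3.72 (SE 0.21) and the intron log2 fold change 1.49 (SE 0.28), a difference of −5.19 (SE 0.32, adjusted p = 2.69e-12). All of its exon reads were unique in both strains, and the exon call held in every alternative run. Col4a6, a collagen chain gene of basement membranes (chrX:141165403-141474076), fell from 160, 207 and 152 exon reads to 6, 11 and 6. Its intron reads were 50, 48 and 30 against 28, 38 and 42 and did not pass the test (log2 fold change −0.38). The difference between both was −4.06 (SE 0.35, adjusted p = 2.59e-09), and again every exon read was unique.

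Rab44, a large Rab GTPase gene, had 37, 59 and 30 exon reads in C57BL/6 and 8, 13 and 7 in BALB/c, but 9, 13 and 3 intron reads against 150, 240 and 211. Mmrn2, the endothelial gene above, was lower by 1.36 in exon reads, whereas its intron log2 fold change was 0.38 (difference −1.72, SE 0.27, adjusted p = 0.000105). On the other side, Serpina3h had 276, 222 and 168 exon reads against 393, 390 and 480, and 426, 385 and 270 intron reads against 18, 14 and 20. Hddc3, a nucleotide phosphatase gene, rose by 1.85 in exon reads, and its intron reads went from 12, 14 and 14 to 1, 1 and 2. In Rab44, Serpina3h and Hddc3, both read types were called, in opposite directions. The exon call of Hddc3 held in every alternative run. That of Serpina3h was lost without C57BL/6 replicate 3, BALB/c replicate 2 or BALB/c replicate 3, and that of Rab44 without C57BL/6 replicate 1, BALB/c replicate 1 or BALB/c replicate 3. Chd9, a chromatin remodeller gene, was lower in both, with log2 fold changes of −0.77 in exon and −4.77 in intron reads, with 2008, 2090 and 1369 intron reads in C57BL/6 and 85, 73 and 65 in BALB/c. Exon-exon reads of Chd9 gave a log2 fold change of 0.32 (adjusted p = 0.489), of the other sign. The exon call of Chd9 was lost without C57BL/6 replicate 1 or any 1 BALB/c library, and with scaling by library size alone.

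Some genes differed in introns alone, and these were named after their values were seen. Cnot6, which encodes a deadenylase (chr11:49671503-49712723), had 391, 395 and 218 exon reads in C57BL/6 and 468, 459 and 497 in BALB/c, and did not pass the exon test (log2 fold change 0.55). Its intron reads were 14, 5 and 5 against 1476, 1541 and 1667, a log2 fold change of 7.45 (SE 0.40, adjusted p = 4.41e-08). Fhl2, a LIM-domain cofactor gene, had 20, 16 and 15 intron reads against 715, 791 and 903, with an exon log2 fold change of −1.04 that did not pass. Snx14, a sorting nexin gene, and Wdr66 had intron log2 fold changes of 4.32 and 5.36 and exon log2 fold changes of 0.14 and −0.05. Skint11 was the reverse: 166, 232 and 111 intron reads against 11, 16 and 14, with exon reads that did not differ by the test (65, 86 and 42 against 65, 70 and 85). The tables give 1 intron count per gene, so whether such reads lie in 1 place or over the whole intron was not tested.

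**Figure D4:**
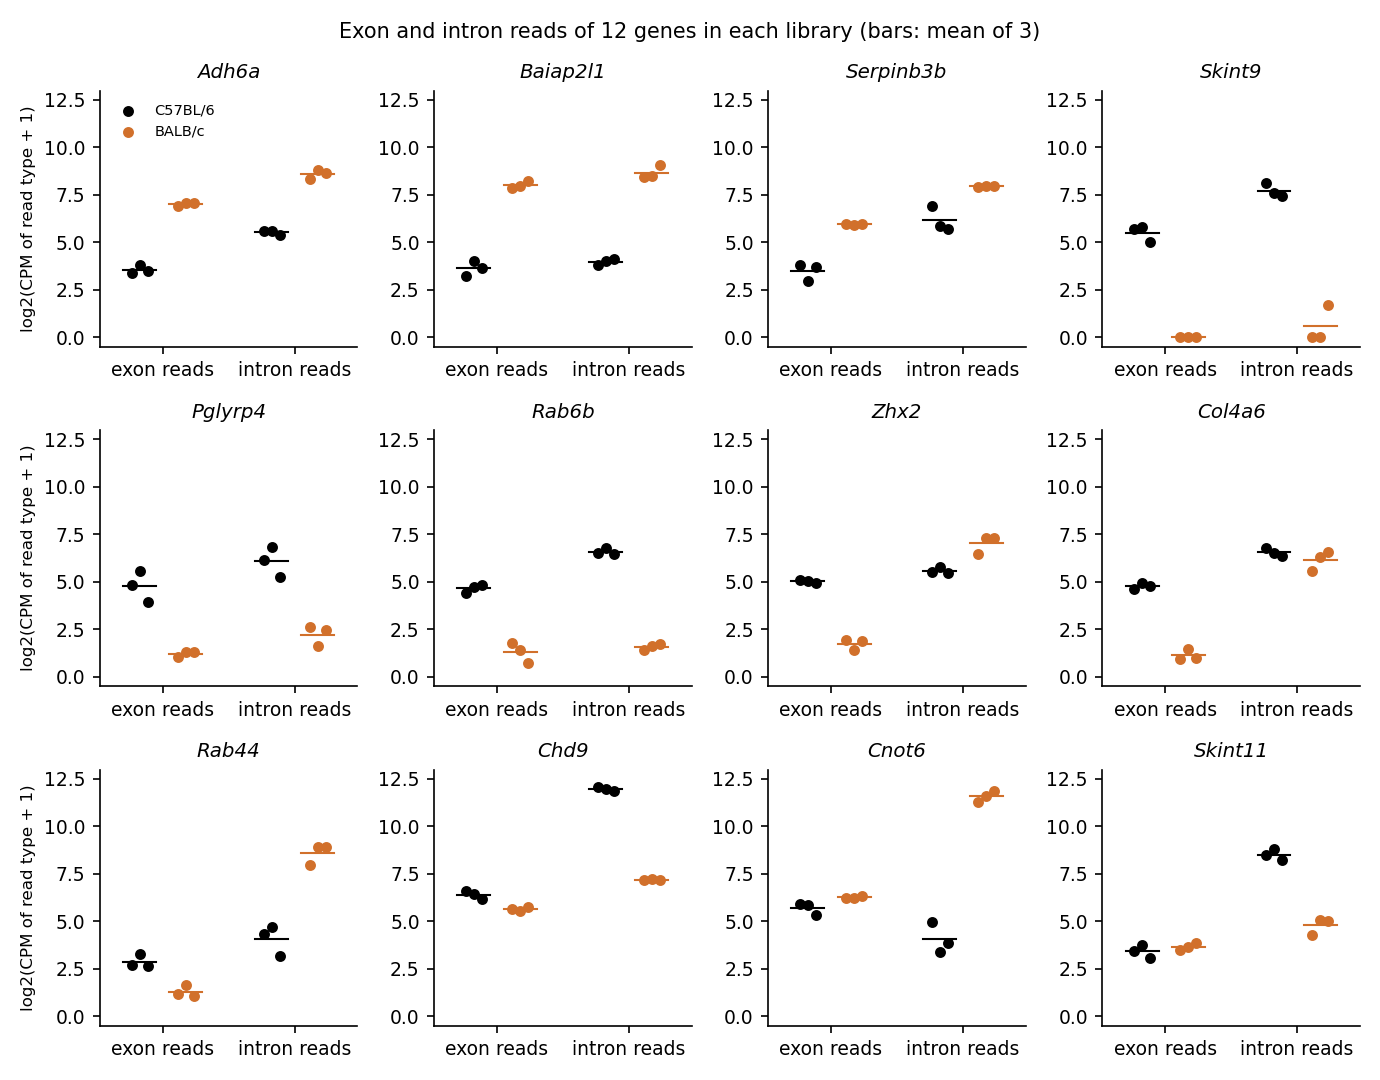
Exon and intron reads of 12 genes in each of the 6 libraries, as log2(CPM + 1) within each read type; each point is 1 library and each bar the mean of 3. Adh6a to Rab6b differ the same way in both read types, Zhx2 and Rab44 in opposite ways, Col4a6 in exon reads, and Cnot6 and Skint11 in intron reads.

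In unique exon reads, 583 of 13221 genes tested (4.41%) were called, 324 higher (2.45%) and 259 lower (1.96%). With scaling by library size alone the split was 371 higher and 186 lower. Of the 583 exon-called genes that could be tested there, 540 were called in the same direction and 0 in the other, and 43 were not called. Exon-exon reads gave 250 of 10996 (2.27%), 144 higher (1.31%) and 106 lower (0.964%), and of 470 exon-called genes tested there 217 were called in the same direction and 0 in the other. Exon reads were under 90% unique in 181 of the 640 called genes and in 2792 of all 13893 tested. Whether the strain effect in unique reads differed from that in the remaining exon reads could be tested in 2438 genes, and 200 (8.2%) were called, 91 above 0 (3.73%) and 109 below (4.47%). Scaling by library size alone gave 202 above and 60 below. Gapdh, a glycolytic enzyme gene named after its values were seen, had 9828, 8584 and 11246 exon reads in C57BL/6 and 4489, 8684 and 8486 in BALB/c, which did not pass the test (log2 fold change −0.44). Its unique reads were 1169, 1200 and 1524 against 75, 134 and 117. The share of unique reads in its exon reads was 13.1% in C57BL/6 and 1.51% in BALB/c. Uimc1, a DNA repair gene, gave the opposite case: 208, 267 and 183 exon reads against 879, 828 and 936, but 206, 263 and 183 unique reads against 286, 201 and 211. Its exon call was lost when unique or exon-exon reads were counted.

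Ribosomal protein genes, whose mRNAs have many copies in the genome, were examined next. Of 79 tested, 8 were lower and 1 higher in exon reads, against 2.09% and 2.51% of all genes tested, and the median over the list was 0.0494. Several of them have processed pseudogenes, intronless copies of an mRNA, that held many reads in BALB/c and few in C57BL/6. Whether these reads come from the mRNA of the gene copied was not tested. Gm8730, a copy of Rplp0, had 1, 2 and 1 reads in C57BL/6 and 2944, 2898 and 3368 in BALB/c, while Rplp0 had 10910, 12339 and 9793 exon reads against 4654, 5188 and 5797. Gm15772, a copy of Rpl26, had 2, 0 and 1 against 2429, 2237 and 2596, while Rpl26 had 2674, 2996 and 2451 exon reads against 542, 523 and 643. Rps3a2, a copy of Rps3a1, had 1, 0 and 0 against 889, 814 and 842, while Rps3a1 did not pass edgeR's exon test (adjusted p = 0.307). In IL-6 KO these 3 pseudogenes had 1 to 6 reads. In all, 18 processed pseudogenes had at least 100 more reads over the BALB/c than over the C57BL/6 libraries, each had at most 20 reads over the 3 C57BL/6 libraries, and 17 of them have a near-identical annotated gene. Gm5526 and Gm11410 did so through BALB/c replicate 2 alone.

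The sequences below show how little separates a gene from such a copy. Each is a stretch of 60 bases of coding sequence, 5′ to 3′, from GENCODE M21 transcripts on GRCm38, chosen to cross a splice junction of the multi-exon gene and to hold a difference; capitals mark the bases that differ within the pair. Rplp0 (chr5:115561223-115561369, plus strand, exons on both sides of an intron) and Gm8730 (chr8:102865297-102865356, minus strand, 1 exon) differ at 12 of 954 compared bases, 2 of them shown. Rpl26 (chr11:68902393-68903188, plus strand) and Gm15772 (chr5:3236549-3236608, plus strand) differ at 2 of 438, 1 of them shown. Ahcy, which encodes the hydrolase of S-adenosylhomocysteine (chr2:155064898-155065567, minus strand), and its 1-exon copy Gm4737 (chr16:46154539-46154598, minus strand) differ at 4 of 1299, 2 of them shown.
Rplp0: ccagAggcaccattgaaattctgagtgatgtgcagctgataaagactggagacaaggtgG
Gm8730: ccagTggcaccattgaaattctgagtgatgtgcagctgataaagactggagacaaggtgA
Rpl26: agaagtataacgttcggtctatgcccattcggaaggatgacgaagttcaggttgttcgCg
Gm15772: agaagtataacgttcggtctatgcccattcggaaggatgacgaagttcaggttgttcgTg
Ahcy: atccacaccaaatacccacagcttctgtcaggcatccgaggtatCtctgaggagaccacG
Gm4737: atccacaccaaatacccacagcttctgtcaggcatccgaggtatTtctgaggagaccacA

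When a gene was summed with its near-identical copies, some log2 ratios came to lie near 0 and others did not. Copies were taken as genes with a transcript at least 95% identical along 200 bases or more (and 40% or more of whichever transcript is shorter), and the sums used total gene reads. Of the 640 exon-called genes, 139 have such a copy, and 111 of these had a log2 difference of at least 1 when taken alone. After summing, the difference was under 0.5 in 38 of the 111 and at least 1 with the same sign in 57. For Ahcy the log2 ratio went from −4.39 alone to 0.03 summed (42.2 ± 3.16 CPM in C57BL/6 and 43.1 ± 2.20 in BALB/c, SD, n = 3). For Rpl26 it went from −2.21 to 0.16, and for Kpna2, a nuclear import receptor gene, from −2.10 to 0.08. For Rplp0 it went from −1.05 to −0.38, and the summed values of the strains still did not overlap (1724 ± 80.8 against 1322 ± 146 CPM, SD, n = 3). The complement protease genes C1rb and C1s2 went from 7.39 to 0.15 and from 4.73 to −0.19 when summed with their paralogs, and C4a went from 2.12 to −0.29. All 3 genes on the complement list that were called are in this group. Gvin1 went from −6.53 to −0.54, and Ly6c2 from 3.78 to 0.23. C1s2, C4a and Ly6c2 were each summed with 1 paralog (C1s1, C4b and Ly6c1), at 95.953% to 98.319% identity. These sums were 194 ± 63.1, 429 ± 119 and 155 ± 27.1 CPM in C57BL/6 (SD, n = 3). Where a paralog holds most of the reads, a summed log2 ratio near 0 does not show whether the gene itself differs.

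Other differences remained after summing. H2-Q1 stayed at 7.57 with its copies and H2-K2 at 2.17. BC100530, a stefin gene, had 2.71 alone and 2.45 summed. Ccl19, Ccl21a and Ccl27a stayed at −3.23, −2.89 and −1.53 with their copies. Rpl29, which encodes a ribosomal protein (chr9:106429454-106431568), had 2152, 2612 and 1996 exon reads in C57BL/6 and 13, 12 and 12 in BALB/c, and 2318, 2081 and 2515 in IL-6 KO. Its log2 ratio was −6.88 alone and −6.30 when summed with 28 copies found. Rpl21 was at −1.21 alone and −1.20 summed. Rps2 went from −2.91 to −1.56, a smaller difference of the same sign. Reads that were discarded, or placed at copies that the search did not find, are not in these sums. Major urinary protein genes, a tandem family of pheromone carriers whose C57BL/6 reads varied between libraries (1803, 3646 and 5702 for the predicted member RP24-346O11.2, and 0 in each BALB/c library), summed to 912 ± 591 CPM in C57BL/6 and 125 ± 60.8 in BALB/c (SD, n = 3), a log2 ratio of −2.87.

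**Figure D5:**
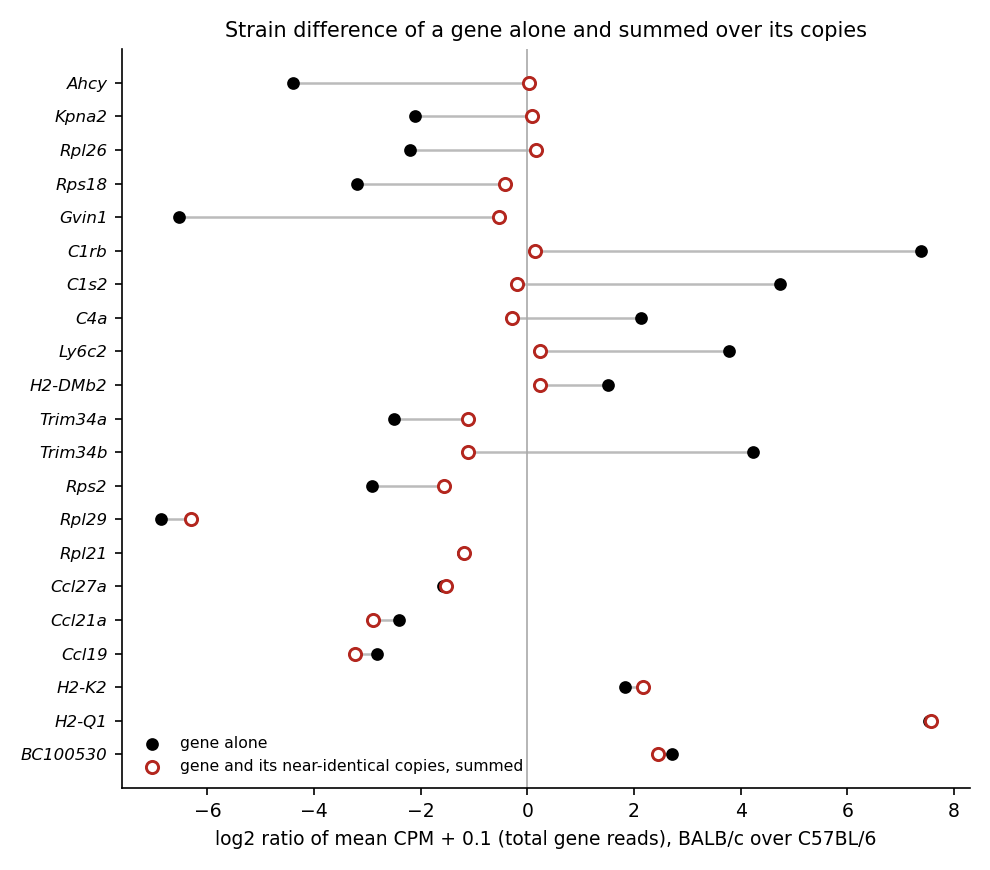
log2 ratio of mean CPM (total gene reads, 0.1 added) in BALB/c over C57BL/6 for 21 genes taken alone (filled) and summed with their near-identical copies (open). Ahcy, Kpna2, Rpl26, C1rb, C1s2, C4a and Ly6c2 lie near 0 once summed, whereas Rpl29, Ccl19, Ccl21a and H2-Q1 stay apart.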

How the data were processed

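Total RNA of mouse skin was sequenced in 9 libraries, and the 3 BALB/c and 3 C57BL/6 libraries were compared. Reads were placed on GRCm38, per the submitters' processing notes, and the aligner is not given in the sources used here. Raw counts per gene were deposited by the authors, per the file headers: total and unique exon, intron, exon-exon and gene reads. The deposited lengths, exon numbers and transcript numbers were used as other descriptors. For C57BL/6 replicate 1 the first of 3 stacked tables was used.

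Counts were tested in edgeR 4.0.16 (R 4.3.3) with TMM scaling, filterByExpr (minimum count 10, minimum total 15), the quasi-likelihood F test on 6 libraries (4 residual degrees of freedom, common dispersion 0.0394 for exon reads) and Benjamini-Hochberg adjustment at 0.05. Standard errors (SE) were taken as the absolute log2 fold change divided by the square root of F. Differences between read types used a read type by strain term with a block per library. Scripts were tested on simulated data. Copies were found with blastn 2.17.0 against GENCODE M21 transcripts. Runs of neighbouring genes hold at least 4 called genes with gaps of up to 500 kb, a rule set after seeing the data. Members, the 61 gene lists and the tests were chosen with earlier results of these data known. Named genes are label checks, and the 10 highest and 10 lowest called in exons and introns whose exon values do not overlap between the strains. Further ones are the 8 and 5 most extreme called differences between read types on each side, and up to 3 called members by p per list. Others were named after their values were seen. Intervals and floors cover counting error only. Asip, a coat colour gene meant as a label check, was not analysed here.

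Alternatives were RLE or library-size scaling, other filters, a robust variance model, leaving out each library, all 9 libraries, a replicate block, DESeq2 1.42.0, a minimum log2 fold change of 1, and other read types; exon-exon reads, unique intron reads and annotated genes only were added after seeing the data.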

Additional observations from a re-analysis of the deposited data

How the results depend on the processing

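The count of genes called in exon reads was 640, and in intron reads 800, in unique reads 583, in the exon against intron test 426 and in the unique against other test 200. Leaving out 1 library at a time gave 210 to 585 in exon, 448 to 721 in intron and 198 to 494 in unique reads, 266 to 347 in the exon against intron test and 110 to 170 in the unique against other test. DESeq2 called 1134 genes in exon and 1034 in unique reads. A minimum log2 fold change of 1 left 137 in exon, 189 in intron and 113 in unique reads. Without a filter on low counts 1477 genes were called in introns, and exon-exon reads gave 250. RLE scaling, a count minimum of 30, a robust variance model and all 9 libraries kept each count within 1.5 times, where run.

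A replicate block lowered the counts to 181 in exon, 512 in intron and 174 in unique reads, and 177 of the 181 are among the 640. Same-numbered libraries correlated at −0.179, −0.244 and −0.106 in their deviations from the group means, so the numbers do not pair the samples, and no library correlated best with its own number.

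Among named genes, 2551 comparisons with an alternative kept sign and call, 466 lost the call, 9 gained it and 8 changed sign. Counting all gene reads, which adds intron reads, changed the sign of Serpina3h (−0.40), Rab44 (2.08), Sh3rf1 (0.60), Fhl2 (4.16), Wdr66 (3.90) and Skint11 (−1.40). Exon-exon reads changed that of Chd9 (0.32), and unique exon and intron reads that of Sh3rf1 in the exon against intron test (0.14, adjusted p = 0.899); the cause was not tested. With 6083876 to 6882193 exon reads a library, genes at a few reads had differences that were not detectable at this depth.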

Other observations

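The hair follicle and glutathione transferase lists stand beside 2.51% of all genes called higher and 2.09% called lower in exon reads. Of 8 tested genes of the inner root sheath, 0 were called by edgeR (median log2 fold change −2.39). Before adjustment 5 of the 8 had p under 0.05, against 3175 of all 13893 genes tested. DESeq2 called 1 of the 8 higher and 1 lower. The inner root sheath genes summed to 0.0214% to 0.0794% of exon reads in C57BL/6, highest in replicate 1, and 0.018% to 0.0211% in BALB/c. Without C57BL/6 replicate 1 the inner root sheath median was −0.751 with 1 higher call, and without C57BL/6 replicate 3 there were 4 lower calls. Of 20 follicle stem cell genes, 2 were lower in BALB/c (Dkk3 and Nfatc1) and 0 higher; the list had 0 calls without C57BL/6 replicate 1, C57BL/6 replicate 2 or BALB/c replicate 3, and 1 higher call without BALB/c replicate 2. Of 21 glutathione transferase genes, which conjugate reactive compounds, 2 were higher (Gsta4 and Mgst2) and 0 lower; the glutathione transferases had 0 calls without any 1 of the C57BL/6 libraries or BALB/c replicate 2.

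A run on chromosome 14 (chr14:25924000-26207041) held 5 called genes of 6 tested, all lower in BALB/c: Tmem254a, Tmem254b, Tmem254c, Plac9b and Gm9780. Both members tested in introns were called lower there too. Mitochondrial ribosomal RNA, listed without annotated transcripts, had 5282, 5882 and 3988 reads in C57BL/6 and 11048, 17047 and 6825 in BALB/c.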
